A study of Mus musculus with 12 samples.

Results

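The proteasome and immunoproteasome subunit genes were followed in mouse Hepa1-6 hepatoma samples from untreated and treated groups. Members were all gene symbols that begin with Psma to Psmg and a number and that reached at least 10 counts in at least 3 of 12 libraries. The pattern matched 50 of 21878 symbols in the table, and 49 passed the count rule. The symbol that did not pass was Psmb11, the thymus-specific catalytic subunit, which had 2 counts in the second untreated library, 1 count in the first mIFNalpha library and 0 counts in the other 10. The 49 members comprised 7 alpha and 7 constitutive beta subunits of the 20S core, the inducible beta subunits Psmb8, Psmb9 and Psmb10, the inducible PA28 activator subunits Psme1 and Psme2, 6 ATPase and 11 non-ATPase subunits of the 19S particle, 3 assembly chaperones of the 19S and 4 of the 20S particle, the activators Psme3 and Psme4, and the inhibitor Psmf1. Another 3 symbols matched the pattern without belonging to these classes. Psme2b is a copy of Psme2, Psma8 is a testis alpha subunit, and Psmc3ip encodes a meiotic recombination factor that is not a proteasome subunit.

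Each of the 4 groups held 3 libraries of total RNA, all labelled as the cell line Hepa1-6 and the tissue liver. The groups were untreated samples, samples given mIFNalpha (an interferon alpha, which is a type I interferon), samples given anti-PD-1 antibody (which blocks the inhibitory receptor PD-1 of T cells), and samples given both, called the combination. The labels give neither dose, time, host strain nor age, and do not name separate animals or cultures for the replicates, so p-values measure the spread between these libraries only.

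The proteasome degrades ubiquitin-tagged proteins in a barrel of alpha and beta rings, and the 19S particle recognises, unfolds and feeds the substrate into it. Of the beta subunits only Psmb5, Psmb6 and Psmb7 carry active sites in most cells. Interferon signalling, above all by interferon gamma and through IRF1, induces Psmb8, Psmb9 and Psmb10, which take the places of Psmb5, Psmb6 and Psmb7 in newly assembled particles and give the immunoproteasome. The same signal induces the PA28 alpha and beta activator subunits, encoded by Psme1 and Psme2. Immunoproteasomes favour peptides that bind MHC class I molecules, and blood-derived cells hold them constitutively. Liver tumour cells and infiltrating leukocytes can therefore both contribute to these transcripts in bulk RNA.

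Library totals ranged from 31.3 to 38.5 M counts (M for mega), and the members held 0.525% to 0.623% of each total. On the first principal component of all tested genes, with 53.7% of the variance, the third anti-PD-1 library lay at 91.9 and the other two at 22.9 and 10.8. On the second, with 15.5%, the first mIFNalpha library lay at -70.6, apart from all others. These libraries were also extreme for the inducible members, and the results for the inducible members are given with and without them. Afp, Alb and Gpc3, markers of hepatoma cells, summed to between 20617 and 23163 CPM (counts scaled by library size) in untreated, 17595 and 22274 CPM in mIFNalpha, 13775 and 23828 CPM in anti-PD-1 and 12776 and 17119 CPM in combination libraries. The combination libraries lay below the untreated ones, while the anti-PD-1 libraries lay both below and above them. Only Afp of these 3 genes passed, and it was named after its values were seen. It fell by 0.57 ± 0.14 on the log2 scale with anti-PD-1 (adjusted p = 0.0281, edgeR) and by 0.76 ± 0.14 with the combination (adjusted p = 0.0159, edgeR). With anti-PD-1 1 of the 3 was higher (log2 fold change 0.08), and with the combination all 3 were lower. All 6 leukocyte markers had counts in every group. Their sum ranged from 613 to 687 CPM in untreated, 412 to 757 CPM in mIFNalpha, 769 to 1880 CPM in anti-PD-1 and 901 to 973 CPM in combination libraries. The lowest of these sums was that of the first mIFNalpha library and the highest that of the third anti-PD-1 library. In bulk RNA, more cells of a type and more RNA per cell cannot be told apart.

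Promoter sequences are shown for the inducible Psmb8 and Psmb9 and for the constitutive counterparts Psmb5 and Psmb6, because the results below turn on the contrast between these pairs. Each stretch holds 250 bases before the RefSeq transcription start in build GRCm38.p6, written 5′ to 3′ on the gene's strand. Capitals mark matches to 1 of 3 motifs searched on both strands: the interferon-stimulated response element (ISRE) as GAAA, any 2 bases and GAAA, the gamma-activated site (GAS) as TTCNNNGAA, and the antioxidant response element (ARE), bound by Nfe2l1 and Nfe2l2, as TGACNNNGC. Psmb8 lies at chr17:34197945-34198194 on the plus strand, Psmb9 at chr17:34187331-34187580 on the minus strand, Psmb5 at chr14:54617996-54618245 on the minus strand and Psmb6 at chr11:70525107-70525356 on the plus strand.
Psmb8: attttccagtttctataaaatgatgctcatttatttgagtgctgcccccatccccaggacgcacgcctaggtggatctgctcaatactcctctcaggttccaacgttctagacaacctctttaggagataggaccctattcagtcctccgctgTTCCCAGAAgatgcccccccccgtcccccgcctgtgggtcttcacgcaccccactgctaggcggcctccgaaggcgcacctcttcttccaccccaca
Psmb9: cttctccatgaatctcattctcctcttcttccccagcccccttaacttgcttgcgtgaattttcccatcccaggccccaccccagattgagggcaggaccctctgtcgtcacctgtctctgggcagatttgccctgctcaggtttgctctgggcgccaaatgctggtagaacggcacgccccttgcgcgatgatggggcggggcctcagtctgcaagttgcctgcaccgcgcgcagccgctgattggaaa
Psmb5: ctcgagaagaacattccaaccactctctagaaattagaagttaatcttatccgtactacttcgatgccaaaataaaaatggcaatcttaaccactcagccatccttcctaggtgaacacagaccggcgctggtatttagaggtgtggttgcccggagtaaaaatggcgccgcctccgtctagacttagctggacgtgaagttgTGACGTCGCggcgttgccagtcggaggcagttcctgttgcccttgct
Psmb6: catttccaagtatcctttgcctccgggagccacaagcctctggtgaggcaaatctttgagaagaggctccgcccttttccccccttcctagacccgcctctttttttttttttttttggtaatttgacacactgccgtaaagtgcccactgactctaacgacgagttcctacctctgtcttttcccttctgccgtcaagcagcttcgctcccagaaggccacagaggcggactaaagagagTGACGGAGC
In Psmb8 the capitals mark a GAS match that begins 97 bases before the start. In Psmb5 and Psmb6 they mark ARE matches that begin 47 and 9 bases before the start. The stretches of Psmb8 and Psmb9 lie wholly, and that of Psmb5 partly, inside the GENCODE M21 spans of these genes, whose outermost annotated start is upstream of the RefSeq one. The Psmb9 stretch held none of these letter patterns. It shares 225 bases with the promoter window of Tap1, which is transcribed in the opposite direction and encodes a subunit of the peptide transporter that feeds class I molecules.

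RefSeq windows of 300 bases, which run 50 bases past the start, were found for 41 of the 49 members. ISRE matches were present in 1 of the 5 inducible genes, namely TTTCGCTTTC in Psme1 from 9 bases after the start, and in 4 of the other 36 genes. GAS matches were present in 1 of 5 and 2 of 36 genes, and ARE matches in 0 of 5 and 6 of 36 genes. Over all 32851 windows the shares were 3.44% for ISRE, 8.30% for GAS and 12.4% for ARE. A match is a description of letters, not of a bound site.

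Levels of different genes were compared per length, in FPKM, which counts fragments per kilobase of transcript after scaling to library depth. In untreated libraries the highest of the 50 matching genes was Psmb4, a non-catalytic beta subunit, at 212 ± 13.0 FPKM (SD, n = 3), followed by Psmb1 at 175 ± 16.6 FPKM. The constitutive beta subunits had group means of 91.8 to 212 FPKM, whereas the alpha subunits ranged from 20.5 (Psma3) to 143 FPKM (Psma2). Of the inducible subunits, Psmb8 was already present at 71.8 ± 15.3 FPKM and ranked 16 of 50, while Psmb9 and Psmb10 stood at 23.2 ± 3.90 and 14.2 ± 2.42 FPKM and ranked 39 and 46. In the combination group Psmb8 reached 176 ± 13.8 FPKM and ranked 2, below Psmb4 at 207 ± 3.23 FPKM. Its rank was 3 with anti-PD-1 and 14 with mIFNalpha.

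Against untreated libraries, Psmb8 and Psmb9 rose 2.22-fold and 2.38-fold with anti-PD-1 and 2.29-fold and 2.43-fold with the combination, and Psmb10 had the same direction without passing the test. Over all members, 3 of 49 rose (Psmb8, Psmb9 and Psma8) and 6 fell with anti-PD-1, where 9.76% of all 14330 tested genes rose and 5.08% fell. With the combination 3 rose (Psmb8, Psmb9 and Psme2b) and 5 fell, where 7.58% of tested genes rose and 5% fell. As shares of the 49 members, 6.12% rose in each comparison, and 12.2% fell with anti-PD-1 and 10.2% with the combination. Psma8 met the count rule only through treated libraries, so its call follows from that choice and is no support. Members thus rose no more often than tested genes as a whole, and the excess of falls over that background was not tested. Both comparisons use the same 3 untreated libraries. A gene was called at an adjusted p under 0.05 in the quasi-likelihood test of edgeR, fitted to all 12 libraries with Benjamini-Hochberg adjustment over all tested genes.

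Psmb8 encodes the inducible chymotrypsin-like subunit beta5i (chr17:34197721-34201454 in mm10, plus strand, GENCODE M21). Its TMM-scaled levels were 83.7, 105 and 122 CPM in untreated, 62.9, 120.5 and 149 CPM in mIFNalpha, 153, 219 and 318 CPM in anti-PD-1 and 230.4, 225 and 255 CPM in combination libraries. Every library with anti-PD-1 antibody lay above every library without it. The third anti-PD-1 library was the highest and the first mIFNalpha library the lowest of all 12. The log2 fold change was 1.15 ± 0.31 (SE) with anti-PD-1 (adjusted p = 0.0357, edgeR) and 1.19 ± 0.31 with the combination (adjusted p = 0.0364, edgeR).

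Psmb9 encodes beta1i, the inducible subunit that takes the place of the caspase-like beta1, and lies beside Tap1 (chr17:34181987-34187764, minus strand). It had 31.1, 41.7 and 43.6 CPM in untreated, 22.2, 45.9 and 57.4 CPM in mIFNalpha, 56.7, 82.0 and 138 CPM in anti-PD-1 and 87.2, 88.6 and 107 CPM in combination libraries. The lowest anti-PD-1 library lay below the highest mIFNalpha library and above all untreated ones. The log2 fold change was 1.25 ± 0.36 with anti-PD-1 (adjusted p = 0.0416, edgeR) and 1.28 ± 0.36 with the combination (adjusted p = 0.0432, edgeR). Exons of Psmb9 and Tap1 overlap over 212 bases, 5.79% of the exon bases of Psmb9, and the strand setting of the counting is not given in the sources used here.

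Psmb10 encodes the inducible trypsin-like subunit beta2i (chr8:105935735-105938444, minus strand). Its levels were 41.1, 41.6 and 49.6 CPM in untreated, 28.1, 51.2 and 66.7 CPM in mIFNalpha, 49.3, 67.5 and 102 CPM in anti-PD-1 and 76.0, 73.0 and 89.5 CPM in combination libraries. The combination libraries did not overlap with the untreated ones, whereas the first anti-PD-1 library lay within the untreated range. The log2 fold change was 0.73 ± 0.30 with anti-PD-1 (adjusted p = 0.12, edgeR) and 0.85 ± 0.30 with the combination (adjusted p = 0.0856, edgeR).

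Without the third anti-PD-1 library the log2 fold changes with anti-PD-1 were 0.86 for Psmb8 (adjusted p = 0.140, edgeR) and 0.85 for Psmb9 (adjusted p = 0.165, edgeR). Without the first or the second untreated library neither gene passed in either comparison, and without any 1 of the combination libraries neither passed in the combination. The Psmb9 call with the combination was lost in all 6 fits without 1 compared library (adjusted p = 0.0533 to 0.166, edgeR). Psmb8 passed in 8 of 15 alternative fits with anti-PD-1 and 10 of 15 with the combination, and Psmb9 in 6 and 5 of 15. The direction was higher in all 15 for both genes, and adjusted p-values with anti-PD-1 ranged from 0.00344 to 0.141 for Psmb8 and from 0.00481 to 0.165 for Psmb9 over these fits.

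**Figure D1:**
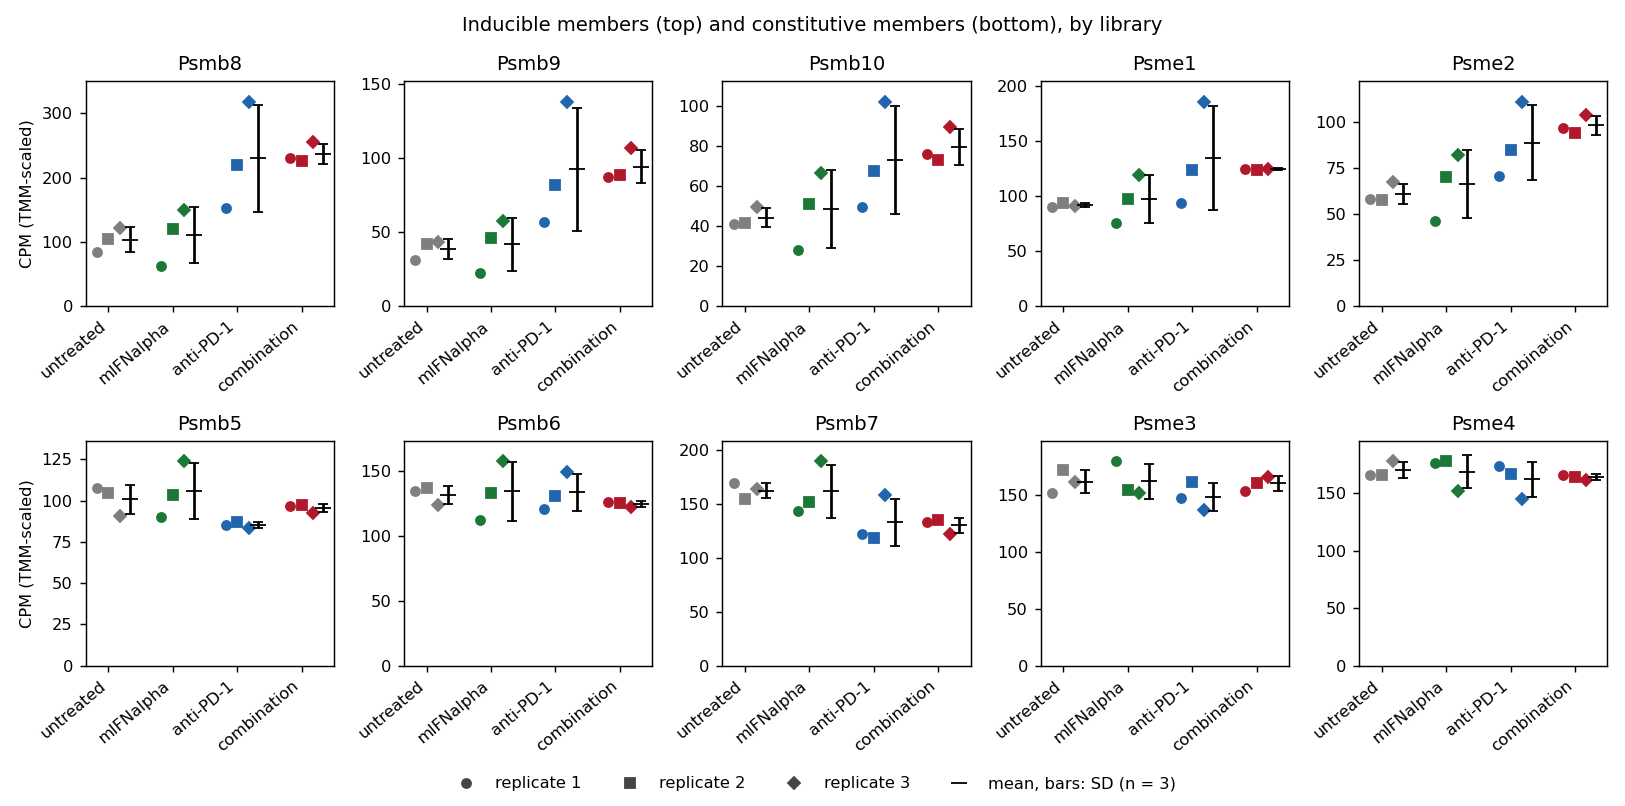
TMM-scaled counts in CPM (linear axes from 0) of the 5 inducible members (top) and of Psmb5, Psmb6, Psmb7, Psme3 and Psme4 (bottom), 1 symbol per library and bars for mean ± SD of 3 libraries. Psmb8 lies between 153 and 318 CPM in the 6 libraries with anti-PD-1 antibody and between 62.9 and 149 CPM in the 6 without it, while the constitutive genes overlap between most groups.

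The 2 inducible PA28 subunits did not pass the test in either comparison with untreated libraries, although their levels were higher in most treated libraries. Psme1 encodes PA28 alpha (chr14:55578123-55581529, plus strand) and had 90.2, 94.0 and 91.3 CPM in untreated, 75.3, 97.2 and 119 CPM in mIFNalpha, 93.7, 124 and 186 CPM in anti-PD-1 and 125, 124 and 125 CPM in combination libraries. The combination libraries lay close together and above the untreated ones, and the first anti-PD-1 library lay within the untreated range. The log2 fold change of Psme1 was 0.55 ± 0.22 with anti-PD-1 (adjusted p = 0.106, edgeR) and 0.44 ± 0.22 with the combination (adjusted p = 0.191, edgeR).

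Psme2 encodes PA28 beta (chr14:55587441-55591113, minus strand) and had 57.9, 57.9 and 67.4 CPM in untreated, 46.2, 70.1 and 82.2 CPM in mIFNalpha, 70.4, 84.8 and 111 CPM in anti-PD-1 and 96.8, 93.9 and 104 CPM in combination libraries. Neither group with anti-PD-1 antibody overlapped with the untreated libraries. The log2 fold change of Psme2 was 0.54 ± 0.20 with anti-PD-1 (adjusted p = 0.0923, edgeR) and 0.68 ± 0.20 with the combination (adjusted p = 0.0503, edgeR). Its copy Psme2b rose with the combination, with 21.5, 22.7 and 26.6 CPM in untreated and 38.7, 39.3 and 38.8 CPM in combination libraries (log2 fold change 0.72 ± 0.20, adjusted p = 0.0406, edgeR). Psme2b and Psme2 transcripts are identical at 789 of 794 aligned bases (99.4%), so reads may be divided between them and the value of either gene is uncertain.

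Without the third anti-PD-1 library the log2 fold changes with anti-PD-1 were 0.42 for Psmb10 (adjusted p = 0.422, edgeR), 0.26 for Psme1 (adjusted p = 0.400, edgeR) and 0.36 for Psme2 (adjusted p = 0.322, edgeR). Without the first anti-PD-1 library Psme1 passed at 0.75 (adjusted p = 0.0302, edgeR). That library was the lowest of its group for all 5 inducible members. Leaving it out raises the fold, so this pass is no support. With the first mIFNalpha and the third anti-PD-1 libraries both left out, the combination values were 0.85 for Psmb10 (adjusted p = 0.00496), 0.45 for Psme1 (adjusted p = 0.0169) and 0.69 for Psme2 (adjusted p = 0.00237, all edgeR), so that all 3 passed. Under the same exclusion Psmb8 and Psmb9 passed with anti-PD-1 at 0.86 and 0.85 (adjusted p = 0.029 and 0.0323, edgeR). Neither excluded library belongs to the combination or untreated group. They were the lowest and the highest of their groups for all 5 inducible members. The passes under this exclusion thus follow from the choice of libraries and are no support.

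The other activators did not pass in any comparison. Psme3 encodes PA28 gamma, a nuclear activator, and had 152, 173 and 162 CPM in untreated, 148, 162 and 137 CPM in anti-PD-1 and 154, 161 and 167 CPM in combination libraries. Psme4, which encodes PA200, had 166, 166 and 178 CPM in untreated, 174, 167 and 145 CPM in anti-PD-1 and 166, 164 and 161 CPM in combination libraries. The groups overlapped for both genes.

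To set each inducible member against its counterpart within the same library, log2 ratios of counts were compared between the 6 libraries with and the 6 without an agent, in an exact two-sided permutation test stratified by the other agent. This test has 400 arrangements and a smallest p of 0.005, and the Benjamini-Hochberg adjustment covers 10 tests (5 pairs and 2 agents). A ratio within a library does not depend on scaling between libraries. It shows unequal change of the members of a pair, not which of them changed. Psmb5, Psmb6 and Psmb7 are replaced by their inducible partners, whereas Psme3 only resembles Psme1 and Psme2. Ratios to Psme3 are thus not a measure of subunit exchange.

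The log2 ratio of Psmb8 to Psmb5 was -0.36, 0.01 and 0.42 in untreated, -0.52, 0.22 and 0.27 in mIFNalpha, 0.84, 1.34 and 1.93 in anti-PD-1 and 1.25, 1.21 and 1.46 in combination libraries. All 6 libraries with anti-PD-1 antibody lay above all 6 without it. The ratio was higher by 1.33 (2.52-fold) with anti-PD-1 (p = 0.005, adjusted p = 0.0125, exact permutation test). Per length, Psmb8 FPKM exceeded Psmb5 FPKM in 6 of 6 libraries with anti-PD-1 antibody and in 0 of 6 without it. The FPKM ratios were 0.492, 0.659 and 0.847 in untreated, 0.447, 0.748 and 0.765 in mIFNalpha, 1.17, 1.69 and 2.41 in anti-PD-1 and 1.55, 1.48 and 1.81 in combination libraries.

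The log2 ratio of Psmb9 to Psmb6 was -2.11, -1.71 and -1.51 in untreated, -2.34, -1.53 and -1.46 in mIFNalpha, -1.09, -0.67 and -0.11 in anti-PD-1 and -0.53, -0.50 and -0.19 in combination libraries. That of Psmb10 to Psmb7 was -2.04, -1.90 and -1.73, -2.36, -1.57 and -1.51, -1.31, -0.81 and -0.64 and -0.81, -0.89 and -0.45 in the same order of groups. Both ratios were higher in every library with anti-PD-1 antibody than in every library without it, by 1.26 (2.40-fold) and 1.03 (2.04-fold) on average, each with p = 0.005 and adjusted p = 0.0125 (exact permutation test). Per length, Psmb9 and Psmb10 stayed below Psmb6 and Psmb7 in all 12 libraries. Exons of Psmb7 and Nek6 overlap over 405 bases, 11.8% of the exon bases of Psmb7.

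The log2 ratio of Psme2 to Psme3 was -1.39, -1.58 and -1.26 in untreated, -1.96, -1.15 and -0.89 in mIFNalpha, -1.07, -0.93 and -0.30 in anti-PD-1 and -0.67, -0.78 and -0.68 in combination libraries. Within each stratum of the other agent the groups did not overlap, and the ratio was higher by 0.63 (1.55-fold) with anti-PD-1 (p = 0.005, adjusted p = 0.0125, exact permutation test). The log2 ratio of Psme1 to Psme3 was -0.75, -0.88 and -0.83 in untreated, -1.26, -0.67 and -0.35 in mIFNalpha, -0.66, -0.38 and 0.44 in anti-PD-1 and -0.30, -0.38 and -0.41 in combination libraries. It was higher by 0.51 (1.42-fold) with anti-PD-1 (p = 0.015, adjusted p = 0.03, exact permutation test), and the mIFNalpha and combination libraries overlapped. This call was lost without any 1 of the untreated or combination libraries (adjusted p = 0.06 to 0.09, exact permutation test).

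With mIFNalpha the 5 log2 ratios differed by -0.05 (Psmb8 to Psmb5), 0.11 (Psmb9 to Psmb6), 0.14 (Psmb10 to Psmb7), -0.05 (Psme1 to Psme3) and 0.07 (Psme2 to Psme3), with adjusted p-values of 0.767 to 0.825 (exact permutation test). In every pair the first mIFNalpha library was the lowest of its group, and below all untreated libraries. When that library and the third anti-PD-1 library were both left out, the differences with mIFNalpha were 0.23 for Psme1 to Psme3 (adjusted p = 0.0429) and 0.34 for Psme2 to Psme3 (adjusted p = 0.02, exact permutation tests), so that both passed. For both ratios these were the lowest library of the mIFNalpha group and the highest of the anti-PD-1 group. Leaving them out raises the mIFNalpha difference in both strata, so these calls follow from that choice and are no support. The same exclusion left differences with anti-PD-1 of 1.06, 0.99 and 0.83 for the 3 catalytic pairs and of 0.22 and 0.36 for Psme1 and Psme2 to Psme3, with adjusted p-values of 0.02 to 0.0429 (exact permutation tests).

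**Figure D2:**
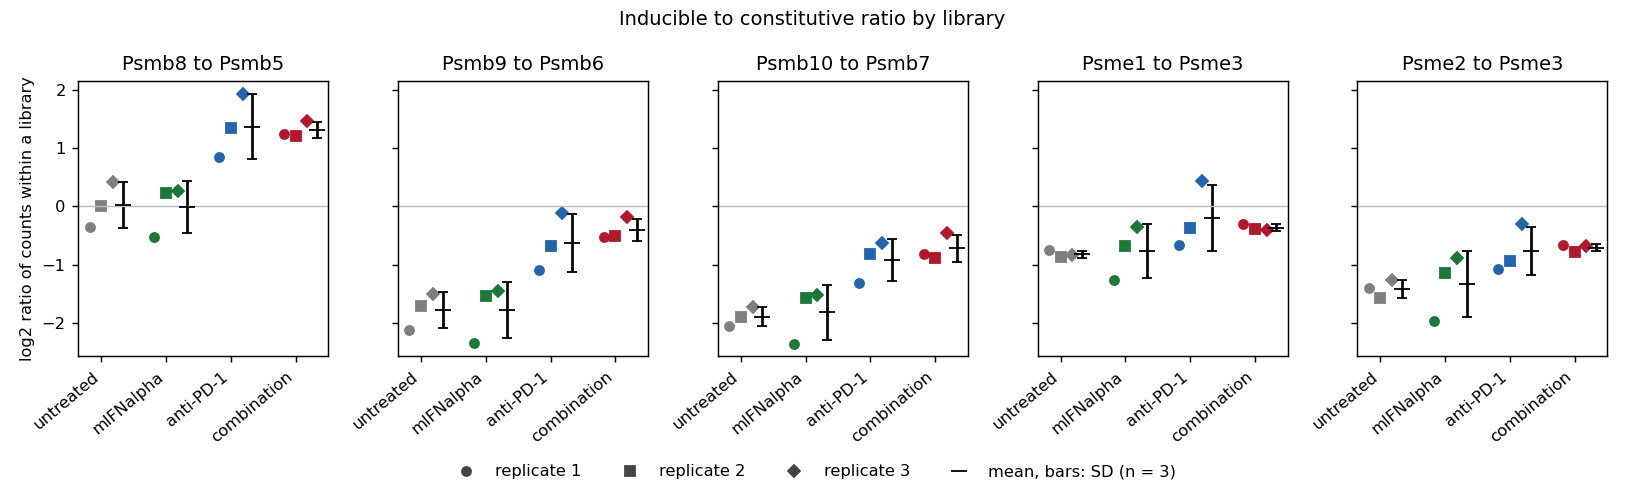
Log2 ratio of the counts of each inducible member to the constitutive gene it replaces (catalytic pairs) or resembles (Psme3) within a library. There is 1 symbol per library, with bars for mean ± SD of 3 libraries, and the grey line marks equal counts. The ratio of Psmb8 to Psmb5 lies between 0.84 and 1.93 in the 6 libraries with anti-PD-1 antibody and between -0.52 and 0.42 in the 6 without it.

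Taking the 6 catalytic subunits together, Psmb8, Psmb9 and Psmb10 supplied 25.8% ± 4.0 (SD, n = 3) of their summed FPKM in untreated, 25.8% ± 5.8 in mIFNalpha, 44.8% ± 7.7 in anti-PD-1 and 46.3% ± 2.9 in combination libraries. The shares ranged from 19.2% to 29.8% in the 6 libraries without anti-PD-1 antibody and from 37.0% to 52.4% in the 6 with it, without overlap. The summed FPKM of Psmb5, Psmb6 and Psmb7 was 313 ± 9.5 in untreated, 324 ± 60.6 in mIFNalpha, 281 ± 15.6 in anti-PD-1 and 301 ± 10.5 in combination libraries. That of Psmb8, Psmb9 and Psmb10 was 109 ± 21.2, 118 ± 51.1, 237 ± 85.1 and 260.3 ± 22.2 in the same order. With anti-PD-1 the mean constitutive sum was thus lower and the mean inducible sum higher than in untreated libraries. These shares are of RNA per length and not of assembled particles.

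**Figure D3:**
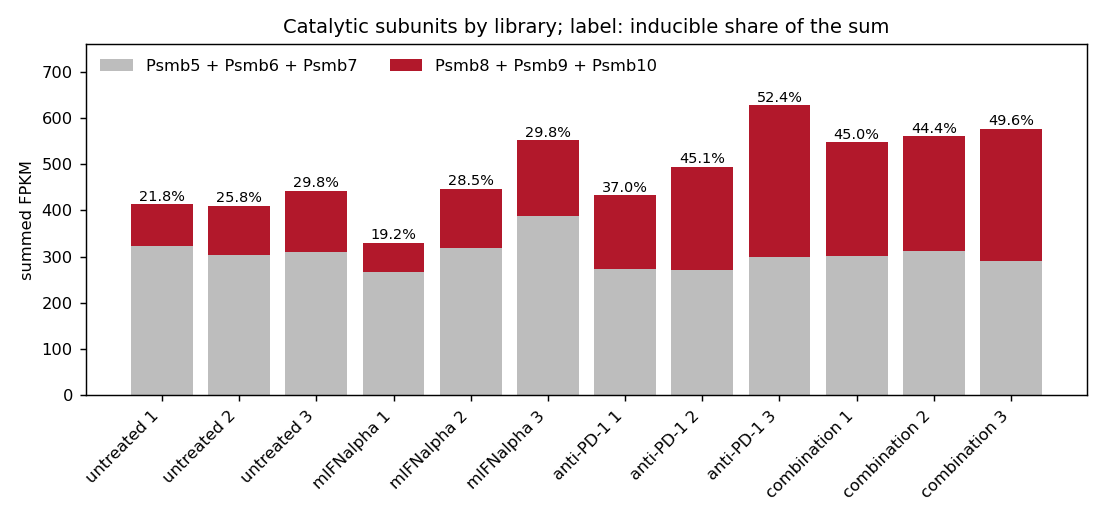
Summed FPKM (linear axis from 0) of the constitutive catalytic subunits Psmb5, Psmb6 and Psmb7 (grey) and the inducible Psmb8, Psmb9 and Psmb10 (red) in each of 12 libraries, with the inducible share of the sum printed above each bar. The share lies between 37.0% and 52.4% in libraries with anti-PD-1 antibody and between 19.2% and 29.8% in those without it.

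Outside the inducible members, the direction was mostly opposite and the size small. For the 41 members that remain after setting aside the 5 inducible genes, Psme2b, Psma8 and Psmc3ip, the median log2 fold change was -0.17 with anti-PD-1, with 36 lower and 5 higher, and -0.16 with the combination, with 39 lower and 2 higher. The median over all 14330 tested genes was -0.01 in both comparisons, with 7356 lower with anti-PD-1 and 7332 with the combination. With anti-PD-1, 6 of the 41 fell and 0 rose, and with the combination 5 fell and 0 rose. Of all tested genes, 5.08% fell and 9.76% rose with anti-PD-1, and 5% fell and 7.58% rose with the combination. All falls were in genes of the 19S particle, its assembly chaperones or the inhibitor Psmf1, and no 20S gene fell. At these shares few of the constitutive core genes would be called, so the lack of calls does not set the core apart. The medians of the core genes were also negative.

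The 14 constitutive core genes did not pass in any comparison with untreated libraries. The alpha subunits, which form the gate and the docking surface of the core, had a median log2 fold change of -0.11 with anti-PD-1 and -0.14 with the combination. The constitutive beta subunits had medians of -0.14 and -0.11. Psmb5, the constitutive chymotrypsin-like subunit beta5, had 107, 104 and 90.9 CPM in untreated, 90.4, 103 and 124 CPM in mIFNalpha, 85.4, 86.9 and 83.3 CPM in anti-PD-1 and 97.0, 97.2 and 92.5 CPM in combination libraries. The anti-PD-1 libraries lay below the untreated ones and the combination libraries overlapped with them (log2 fold changes -0.24 ± 0.11, adjusted p = 0.151, and -0.08 ± 0.11, adjusted p = 0.662, edgeR). Psmb6, the caspase-like beta1, had 134, 137 and 124 CPM in untreated and 126, 125 and 122 CPM in combination libraries, and the log2 fold changes were 0.02 ± 0.12 with anti-PD-1 and -0.08 ± 0.12 with the combination. Psmb7, the trypsin-like beta2, had 169, 155 and 164 CPM in untreated, 122.8, 118 and 159 CPM in anti-PD-1 and 134, 135 and 122 CPM in combination libraries. Its combination libraries lay below the untreated ones, with log2 fold changes of -0.29 ± 0.13 with anti-PD-1 (adjusted p = 0.149, edgeR) and -0.32 ± 0.13 with the combination (adjusted p = 0.124, edgeR).

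Of the 11 non-ATPase 19S subunits, 4 fell with anti-PD-1 (Psmd1, Psmd3, Psmd12 and Psmd13) and 2 with the combination (Psmd1 and Psmd12), and the medians were -0.24 and -0.22 on the log2 scale. Psmd1 encodes Rpn2, the large scaffold subunit of the base (chr1:86064387-86139151, plus strand). It had 295, 309 and 292 CPM in untreated, 271, 269.8 and 260.2 CPM in mIFNalpha, 222, 228 and 228 CPM in anti-PD-1 and 235, 235 and 235 CPM in combination libraries. The 4 groups separated, with untreated highest, mIFNalpha next and both groups with anti-PD-1 antibody lowest, and the spread within each was small. Psmd1 fell by 0.40 ± 0.07 on the log2 scale with anti-PD-1 (adjusted p = 0.0188, edgeR) and by 0.35 ± 0.07 with the combination (adjusted p = 0.0175, edgeR). The call held in 12 of 15 alternative fits with anti-PD-1 and in 7 of 15 with the combination. Exons of Psmd1 and Htr2b overlap over 252 bases.

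Psmd12, the lid subunit Rpn5, had 126, 122 and 120.2 CPM in untreated, 101, 105 and 105 CPM in anti-PD-1 and 98.9, 104 and 100.4 CPM in combination libraries, without overlap between untreated and either group (log2 fold changes -0.25 ± 0.07, adjusted p = 0.0477, and -0.28 ± 0.07, adjusted p = 0.0358, edgeR). Psmd13, the lid subunit Rpn9, had 129.6, 119.8 and 117 CPM in untreated and 104, 100.5 and 97.3 CPM in anti-PD-1 libraries (log2 fold change -0.28 ± 0.08, adjusted p = 0.0392, edgeR). Psmd12 passed in 6 of 15 alternative fits with the combination, and Psmd13 in 3 of 15 with anti-PD-1. Psmd3, the lid subunit Rpn3, was named after its values were seen, and had a log2 fold change of -0.26 ± 0.08 with anti-PD-1 (adjusted p = 0.0495, edgeR). Psmd8, the lid subunit Rpn12, had 238, 239.7 and 251 CPM in untreated, 281, 267 and 297 CPM in mIFNalpha, 263, 247 and 261 CPM in anti-PD-1 and 230.1, 232 and 241 CPM in combination libraries. Its log2 fold change was 0.08 ± 0.07 with anti-PD-1, where it was the only one of the 11 that was higher, and -0.05 ± 0.07 with the combination, where all 11 were lower. It did not pass in any comparison.

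The 6 ATPases, which unfold the substrate, had median log2 fold changes of -0.18 with anti-PD-1 and -0.20 with the combination. Psmc4 (Rpt3) fell with the combination, from 198, 205 and 188 CPM in untreated to 153, 164 and 161 CPM in combination libraries (log2 fold change -0.30 ± 0.08, adjusted p = 0.0414, edgeR). This call held in 6 of 15 alternative fits. With anti-PD-1 it had 161, 177 and 181 CPM and did not pass (adjusted p = 0.146, edgeR).

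Psmd5, a chaperone that holds the ATPase ring before assembly, fell in both comparisons, with 63.4, 63.3 and 61.8 CPM in untreated, 60.5, 65.0 and 67.1 CPM in mIFNalpha, 50.8, 52.0 and 52.1 CPM in anti-PD-1 and 54.0, 53.2 and 52.4 CPM in combination libraries. Every library with anti-PD-1 antibody lay below every library without it. It fell by 0.28 ± 0.07 on the log2 scale with anti-PD-1 (adjusted p = 0.0281, edgeR) and by 0.24 ± 0.07 with the combination (adjusted p = 0.0478, edgeR). The call with anti-PD-1 held in 7 of 15 alternative fits. The other 19S chaperones Psmd9 and Psmd10 and the 20S chaperones Psmg1 to Psmg4 did not pass.

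Psmf1 encodes PI31, named for its inhibition of the isolated 20S core (chr2:151715812-151744186, minus strand). It had 91.6, 96.5 and 86.7 CPM in untreated, 87.1, 80.6 and 82.8 CPM in mIFNalpha, 73.3, 71.8 and 63.5 CPM in anti-PD-1 and 69.5, 70.1 and 71.3 CPM in combination libraries. Both groups with anti-PD-1 antibody lay below all libraries without it. Psmf1 fell by 0.40 ± 0.08 on the log2 scale with anti-PD-1 (adjusted p = 0.0207, edgeR) and by 0.38 ± 0.08 with the combination (adjusted p = 0.0209, edgeR), in 11 and 7 of 15 alternative fits.

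**Figure D4:**
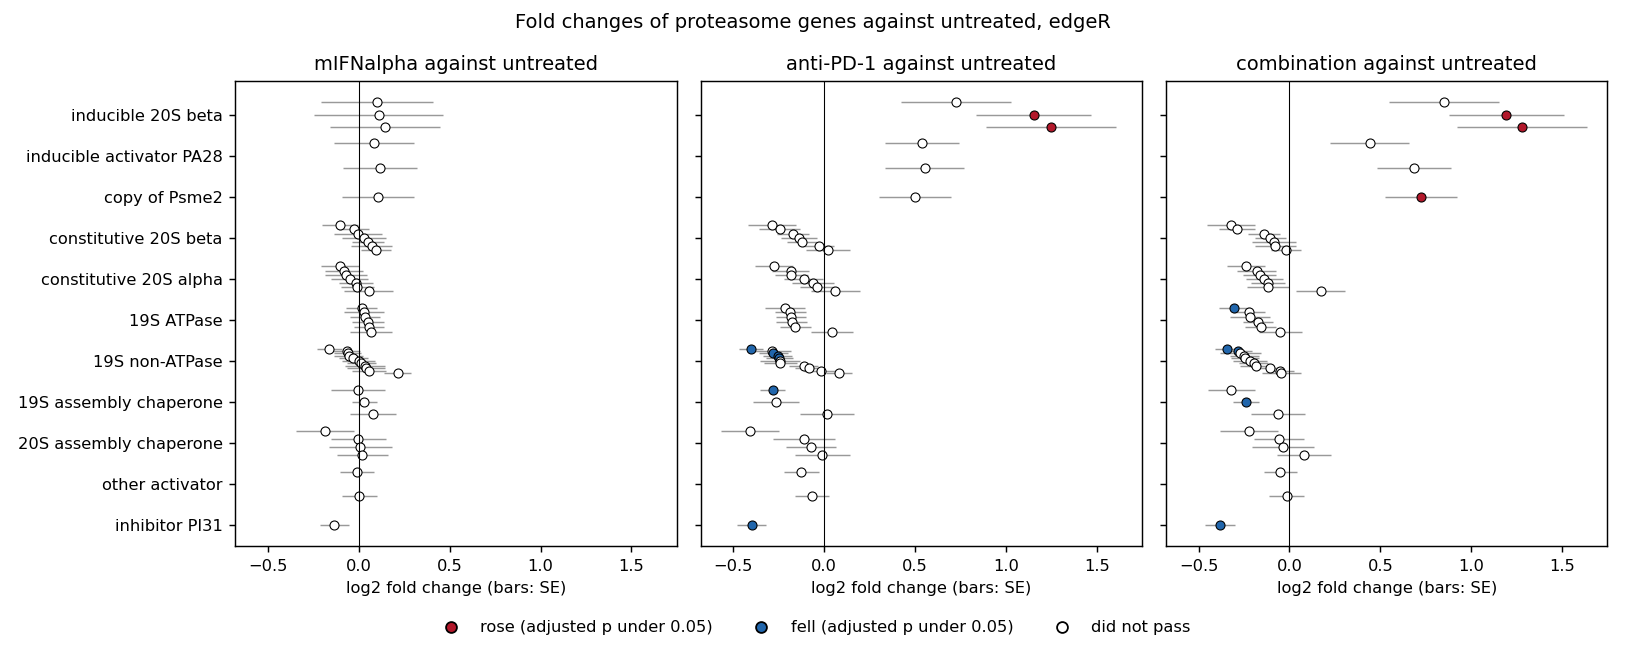
Log2 fold changes against untreated (edgeR, bars for SE) of 47 members by role, with Psma8 and Psmc3ip left out; red and blue symbols passed an adjusted p of 0.05. The inducible members lie between 0.44 and 1.28 in both comparisons with anti-PD-1 antibody, while most others lie below 0, and 0 members passed with mIFNalpha alone.

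With mIFNalpha alone 0 of 49 members passed, as did 0% of all tested genes in either direction. At an unadjusted p under 0.05 there were 3 members, and 801 of 14330 tested genes, in edgeR. These 3 were Psma8, Psmd8 (log2 fold change 0.21 ± 0.07, adjusted p = 0.866) and Psmd1 (-0.16 ± 0.07, adjusted p = 0.885). DESeq2 and limma also called 0 members. The inducible members had log2 fold changes of 0.08 to 0.14, with SEs of 0.20 to 0.36, so that effects of this size cannot be told from the spread between libraries. Without the first mIFNalpha library, the log2 fold changes of Psmb8, Psmb9, Psmb10, Psme1 and Psme2 were 0.38, 0.41, 0.42, 0.24 and 0.32, with none past the threshold.

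Between the combination and anti-PD-1 alone, 0 of 49 members passed in edgeR, against 0% of all tested genes in either direction, and 1 member (Psmd6, Rpn7) and 682 tested genes had an unadjusted p under 0.05. Psmb8 differed by 0.04 ± 0.31 and Psmb9 by 0.03 ± 0.35 on the log2 scale. The combination libraries lay within the range of the anti-PD-1 libraries for Psmb8, Psmb9 and Psmb10 and varied less. The SD of Psmb8 was 83.4 CPM in anti-PD-1 and 15.9 CPM in combination libraries, and this difference in spread was not tested.

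Against mIFNalpha alone, 0 of 49 members passed with the combination, where 0.342% of tested genes rose and 0.614% fell. At an unadjusted p under 0.05 there were 20 members and 3307 tested genes in edgeR. Psmb8 had a log2 fold change of 1.09 ± 0.31 (adjusted p = 0.0906) and Psmb9 of 1.17 ± 0.36 (adjusted p = 0.101), while Psmc4 had -0.34 ± 0.08 (adjusted p = 0.0748) and Psmd5 -0.27 ± 0.07 (adjusted p = 0.0772, all edgeR). DESeq2 called 12 members in this comparison. With the first mIFNalpha and the third anti-PD-1 libraries left out edgeR called 6, among them Psmb8 at 0.78 (adjusted p = 0.0437) and Psmb9 at 0.84 (adjusted p = 0.0414).

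The interaction asks whether the change with both agents differs from the sum of their separate changes. In edgeR 0 of 49 members passed, as did 0% of all tested genes in either direction, with 3 members and 868 tested genes at an unadjusted p under 0.05. The smallest p among members was that of Psmd8 (-0.35 ± 0.10 on the log2 scale, adjusted p = 0.725). For Psmb8 the interaction was -0.06 ± 0.44 and for Psmb9 -0.08 ± 0.50, with SEs that leave differences of this size undetectable with 3 libraries a group.

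Psma8, the testis alpha subunit, met the count rule with few reads. It had 2, 1 and 6 counts in untreated, 16, 16 and 11 in mIFNalpha, 21, 6 and 31 in anti-PD-1 and 18, 20 and 15 in combination libraries. The second anti-PD-1 library equalled the highest untreated library. All 8 of its libraries with 10 or more counts were treated ones, so it met the count rule only through the groups where it was higher, and neither a fold nor a test against untreated libraries is given as support. Psmc3ip had 6.03, 6.30 and 6.23 CPM in untreated and 6.88, 6.66 and 7.42 CPM in combination libraries and did not pass.

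Among 28 tested partners and regulators of the proteasome (ubiquitin receptors, deubiquitinases, assembly and transcription factors), 0 rose in either comparison with untreated libraries. Of these, 1 fell with anti-PD-1 (Vcp, the p97 unfoldase, -0.39 ± 0.09, adjusted p = 0.023, edgeR) and 1 with the combination (Zfand5, a proteasome-binding protein, -0.46 ± 0.13, adjusted p = 0.0488, edgeR). Both were named after their values were seen. Over all tested genes 9.76% rose and 5.08% fell with anti-PD-1, and 7.58% rose and 5% fell with the combination. Pomp, the chaperone that matures the core and favours immunoproteasome assembly, had 225, 203 and 195 CPM in untreated and 193, 189 and 194 CPM in combination libraries and did not pass. Nfe2l1, the transcription factor that raises proteasome genes when the proteasome is inhibited, had log2 fold changes of 0.02 ± 0.09 with anti-PD-1 and 0.02 ± 0.09 with the combination (adjusted p = 0.92 and 0.895, edgeR).

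In the class I peptide pathway 5 of 11 genes rose in each comparison, with medians of 0.73 with anti-PD-1 and 0.80 with the combination, and 0 fell. Among all tested genes 9.76% rose with anti-PD-1 and 7.58% with the combination. Tap1, beside Psmb9, had 111, 137 and 148 CPM in untreated, 89.0, 168 and 172 CPM in mIFNalpha, 163, 239 and 366 CPM in anti-PD-1 and 255, 252 and 309 CPM in combination libraries. Its log2 fold change was 0.96 ± 0.30 with anti-PD-1 (adjusted p = 0.0533, edgeR) and 1.05 ± 0.30 with the combination (adjusted p = 0.0445, edgeR). Tap2, the other transporter subunit, rose by 1.29 ± 0.31 with anti-PD-1 (adjusted p = 0.026, edgeR) and by 1.48 ± 0.31 with the combination (adjusted p = 0.0206, edgeR).

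Of 15 interferon signalling genes, 2 rose with anti-PD-1 (Nlrc5 and Ifnar2) and 3 with the combination (Stat2, Nlrc5 and Socs1), and 0 fell. Over all tested genes 9.76% and 7.58% rose, and an excess of this list over that background was not tested. Nlrc5, the transactivator of class I genes, rose by 0.93 ± 0.24 with anti-PD-1 (adjusted p = 0.0297, edgeR) and by 1.20 ± 0.24 with the combination (adjusted p = 0.0179, edgeR). Irf1, a direct inducer of Psmb9 and Tap1, had log2 fold changes of 0.67 ± 0.29 and 0.94 ± 0.29 without passing (adjusted p = 0.132 and 0.057, edgeR).

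Most leukocyte markers moved with the inducible members, as did markers of some other cell types. The log2 fold changes of the 6 leukocyte markers ranged from 0.15 to 2.27 with anti-PD-1. With the combination they ranged from -0.35 to 2.02, with 5 higher and 1 lower. With anti-PD-1, 4 of 6 leukocyte, 6 of 7 T and NK cell, 3 of 4 B cell, 8 of 8 macrophage, 3 of 5 dendritic cell and 4 of 4 neutrophil markers rose, and with the combination 3, 2, 1, 5, 1 and 4 did. The shares of all tested genes that rose were 9.76% with anti-PD-1 and 7.58% with the combination. Ptprc, the pan-leukocyte antigen CD45, had 31.4, 30.5 and 48.8 CPM in untreated, 21.2, 50.4 and 47.4 CPM in mIFNalpha, 63.95, 92.3 and 224 CPM in anti-PD-1 and 111, 109 and 114 CPM in combination libraries, and rose by 1.78 ± 0.45 and 1.59 ± 0.44 on the log2 scale (adjusted p = 0.0292 and 0.0427, edgeR). T and NK cell markers summed to between 21.5 and 25.6 CPM in untreated, 9.82 and 35.2 CPM in mIFNalpha, 44.0 and 222 CPM in anti-PD-1 and 70.5 and 90.8 CPM in combination libraries. Macrophage markers summed to between 320.1 and 568 CPM in untreated and between 1082 and 4515 CPM in anti-PD-1 libraries. The third anti-PD-1 library was the highest of its group for all 5 inducible members and for the leukocyte, T and NK cell and macrophage sums. The first mIFNalpha library was the lowest of its group for the same members and sums, but the highest for the neutrophil sum. The third untreated library was the highest of its group for 4 of the 5 members but had the lowest leukocyte sum, at 613 CPM. In mIFNalpha the third library was the highest for all 5, with a leukocyte sum of 726 CPM against 757 CPM in the second. The third combination library was the highest of its group for all 5 and for the leukocyte sum. No marker of these lists was at 0 in any group.

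Among markers of other cells, fibroblast genes were higher in 6 of 6 in both comparisons (median log2 fold changes 1.42 with anti-PD-1, where 2 rose, and 1.14 with the combination, where 0 rose). Endothelial genes were higher in 5 of 5 (medians 0.91 and 0.89) and adult hepatocyte genes in 6 of 6 (medians 2.11 and 1.46), with 0 called. Of 3 hepatoma genes 1 fell in each comparison, with medians of -0.57 and -0.76, and 1 was higher with anti-PD-1 without passing. For comparison, 9.76% of all tested genes rose and 5.08% fell with anti-PD-1, and 7.58% rose and 5% fell with the combination. Pancreatic acinar genes were lower in 5 of 5 with anti-PD-1 (median -5.19, 1 fell) and higher in 4 of 5 with the combination (median 0.89, 0 called). Adult hepatocyte markers summed to between 143 and 391 CPM in untreated, 218 and 1190 CPM in mIFNalpha, 243 and 2047 CPM in anti-PD-1 and 299 and 1277 CPM in combination libraries, and fibroblast markers to between 435 and 1632, 1233 and 1447, 1420 and 4043, and 1474 and 1817 CPM. The third anti-PD-1 library was the highest of its group for the adult hepatocyte, fibroblast and hepatoma sums, and the first mIFNalpha library was the highest of its group for the adult hepatocyte and endothelial sums and the lowest for the hepatoma sum. The part of infiltrating or other cells in the changes of the members was not tested.

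**Figure D5:**
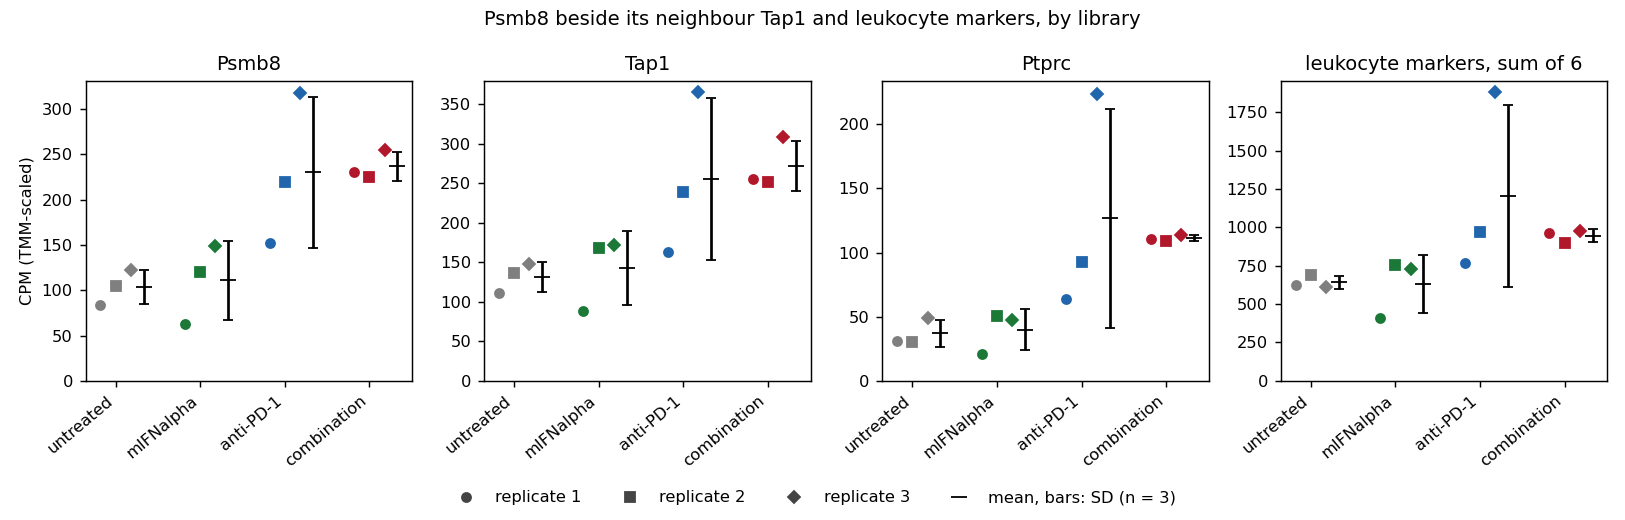
TMM-scaled counts in CPM (linear axes from 0) of Psmb8, Tap1, the leukocyte gene Ptprc and the sum of 6 leukocyte markers, 1 symbol per library and bars for mean ± SD of 3 libraries. All 4 panels have their highest value in the third anti-PD-1 library and their lowest in the first mIFNalpha library, at 318 and 62.9 CPM for Psmb8 and 1880 and 412 CPM for the leukocyte sum.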

How the data were processed

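Total RNA of 12 libraries in 4 groups of 3 was analysed, with groups from the labels and columns matched by name. The deposited tables hold raw read counts and FPKM for each gene. HISAT2 2.1.0, HTSeq, Cufflinks and the build mm10 are listed in the submitters' processing notes, which assign no step to them. Neither the authors' annotation nor their strand setting is given in the sources used here. The members and lists were chosen with earlier results of these data known. Of the lists, 1 gene is not reported here.

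Counts were filtered (filterByExpr, minimum count 10), TMM-scaled and fitted in edgeR 4.0.16 (R 4.3.3) by robust quasi-likelihood, with 1 mean per group, 8 residual degrees of freedom and Benjamini-Hochberg adjustment over 14330 genes. CPM values are TMM-scaled counts. Ratios were compared by exact permutation in Python 3.11.15. Both procedures were tested on simulated data. Coordinates are from GENCODE M21, in which all 49 members were found, and promoters from RefSeq.

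Named genes were the inducible members, their counterparts, Psme4 and 6 pathway genes in every comparison, with up to 4 further members that rose and 4 that fell by size, or the 2 smallest p-values in each direction where none passed.

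Alternatives were RLE scaling, no low-count filter, only the groups compared, DESeq2 1.42.0, a replicate block, and limma 3.58.1 on the deposited FPKM as log2 with a pseudocount of 1 or 0.1 (FPKM of at least 1 in 3 libraries) or 1 and no filter. Ratios were also taken of FPKM and permuted without strata, and every test was repeated without each library and without both that stood apart. No 2 libraries of the same group agreed within counting noise.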

Additional observations from a re-analysis of the deposited data

How the results depend on the processing

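Of 1877 alternative values of the named genes, 1699 stayed on the same side of the threshold, most of them of genes not called in the main fit. Of the 282 values of genes that were called, 133 lost the call, and 45 values of genes not called passed. The sign changed in 172 of the 1877 values, none of which passed in either fit. It was kept in all 282 values of genes that were called. The number of members called also varied. With anti-PD-1, where 9 were called, it was 5 without the low-count filter, 0 with only the groups compared and 2 with each limma fit on FPKM, and 0 to 7 on leaving out 1 library (0 without the first or second untreated library, 1 without the third anti-PD-1 library). With the combination, where 8 were called, it was 4 without the filter, 22 with only the groups compared, 13 with DESeq2, 2 with each limma fit, and 18 with the first mIFNalpha and the third anti-PD-1 libraries left out. Leaving out 1 library gave 0 to 10 (0 without the first or second untreated or any combination library). For the combination against mIFNalpha, where 0 were called, it was 12 with DESeq2 and 6 with both libraries left out, and leaving out 1 library gave 0 in that comparison and in the other 3. The cause of these shifts was not tested.

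Replicate numbers are shared between groups, but of 18 same-numbered pairs of libraries 8 correlated above 0.1 (range -0.30 to 0.50), so the numbers are not shown to pair samples. With the replicate block edgeR called 2 members between the combination and mIFNalpha. The blocked ratio test gave differences with anti-PD-1 of 1.33, 1.26, 1.03, 0.51 and 0.63, with adjusted p = 0.125 for Psme1 to Psme3 and 0.0781 for the other 4, which had 0.0313 before adjustment, the smallest p its 64 arrangements allow (exact permutation test). Leaving out 1 library moved the ratio differences with anti-PD-1 between 1.19 and 1.46 (Psmb8 to Psmb5), 1.12 and 1.38 (Psmb9 to Psmb6), 0.90 and 1.13 (Psmb10 to Psmb7), 0.35 and 0.62 (Psme1 to Psme3) and 0.47 and 0.74 (Psme2 to Psme3). With mIFNalpha the ranges were -0.18 to 0.09, -0.01 to 0.25, 0.04 to 0.27, -0.17 to 0.11 and -0.04 to 0.23. The FPKM ratio of Psme1 to Psme3 gave 0.51 (adjusted p = 0.05). With both libraries left out, the differences with mIFNalpha were 0.23 for Psme1 to Psme3, a turned direction, and 0.34 for Psme2 to Psme3. That exclusion itself raises these differences, so they are no support for a change with mIFNalpha. The interaction could not be fitted to only the groups compared. With 3 libraries a group, edgeR recovered 51% of simulated 2-fold and 83% of 4-fold changes for anti-PD-1 against untreated, on 14235 genes.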
